A study of Mus musculus with 55 samples.

Results

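The promoter of Lep, the gene of the hormone leptin, was followed in mouse liver from the last days before birth to adulthood by methylation at single CpGs. The 15 CpGs described here were every CpG listed under Lep in the table of locus-specific bisulfite sequencing (LSBS), which were 11 of 166 CpGs, and every CpG of the table of reduced representation bisulfite sequencing (RRBS) from 5 kb upstream of the Lep start site to the end of the gene, which were 4 of 271325. In LSBS, bisulfite-treated DNA is amplified by PCR at a chosen region and sequenced deeply. In RRBS, DNA is cut with MspI at CCGG and the fragments are sequenced across the genome. In both, a value is the percentage of reads at a CpG that carried a methylated cytosine. All samples were livers of C57BL/6 mice (C57BL/6J in the study's methods) with no treatment named. The 31 LSBS livers were from late embryos (E18.5, n = 5), from postnatal days P1 (n = 5), P5 (n = 4), P10 (n = 4), P15 (n = 3) and P20 (n = 5), and 6 mo (n = 5), from 16 females and 15 males. The 24 RRBS libraries were of E18.5 (n = 5), P1 (n = 9) and 9 wk (n = 10). The titles of the P1 libraries also carry the letters 6Mo, whose meaning the labels do not give, and these libraries were taken as P1 from their age label alone. The adult LSBS livers here are those labelled 6 mo, while the study's text describes adult LSBS livers of another age. Per the study's methods the mice of the first RRBS experiment ate a chow with coconut oil, and the 9 wk mice were male. The methods also name a supplier for tissues from E18.5 to P20 of the study's time course, its second RRBS experiment. Whether the LSBS livers were among these tissues is not stated. Litters were not given, so livers were taken as independent.

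Leptin is a hormone made mainly by fat cells, which signals the size of fat stores to the brain through the leptin receptor. Adult hepatocytes, the main cells of liver, are not a usual source of it. Methylation of cytosines at CpGs in a promoter commonly accompanies low transcription, and the Lep promoter is known as one whose methylation differs between tissues. The liver before and just after birth also holds blood-forming cells, which later leave for the bone marrow, so each value is an average over a mixture of cells that changes with age. Methylation within hepatocytes and the share of each cell type cannot be told apart in these data.

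Lep (ENSMUSG00000059201.6) lies on the plus strand of chromosome 6 at 29010220 to 29023877 in mm9, the build of the files. CpG1 to CpG11 are the LSBS CpGs, numbered from the far end towards the gene, and lie upstream of the transcript at chr6:29009955-29010069. They span 115 bases, from -265 to -151 relative to the start site, and are all 11 CpGs that the genome holds there. CpG12 (29010159, -61) and CpG13 (29010169, -51) are RRBS CpGs of the same promoter. CpG14 (29021903, 11683 bases past the start site) and CpG15 (29022012, 11792 bases past it) are RRBS CpGs in the untranslated part of the last exon. No CpG of Lep was measured in both assays. The upstream stretch that carries the 13 promoter CpGs is shown so that their spacing can be read, with the measured CpGs in capitals. It is the mm9 plus strand, chr6:29009940-29010219, which ends 1 base before the start site and holds 18 CpGs in all:

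Lep promoter: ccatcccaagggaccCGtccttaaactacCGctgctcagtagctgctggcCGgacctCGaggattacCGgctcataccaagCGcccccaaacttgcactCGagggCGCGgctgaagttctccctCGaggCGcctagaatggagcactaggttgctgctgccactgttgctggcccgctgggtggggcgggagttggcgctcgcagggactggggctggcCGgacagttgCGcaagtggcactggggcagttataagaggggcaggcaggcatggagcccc

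The stretch holds known elements of the Lep promoter by their letters. CpG13 sits in the middle of TTGCGCAA (-54 to -47), the palindrome bound by C/EBP factors, which drive fat cell genes. That motif, searched on both strands, is in 0.183% of 32817 RefSeq promoters of 300 bases (GRCm38.p6). The GC box GGGCGG (-97 to -92), a site type of Sp1, is in 35.6% of them, and TATAA (-30 to -26, overlapped by a match on the other strand from -31) is in 24.9%. The 300 bases around the Lep start hold 19 CpGs, against a median of 7 over the same promoters, of which 72.0% hold fewer than Lep. A match of letters is a description of the sequence and not evidence of binding.

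In LSBS every CpG of the Lep promoter was methylated in the larger part of the reads on average, and none was near 0 or near full methylation. The 341 values ran from 44.5% (CpG10 in a P15 female) to 89.8% (CpG3 in a P20 female). Averaged over the 7 age means, CpG3 was the highest at 81.4%, followed by CpG9 at 76.8%, CpG8 at 74.8%, CpG6 at 71.5% and CpG5 at 69.3%. A lower group followed, with CpG11 at 63.7%, CpG7 at 62.5%, CpG1 at 60.2%, CpG2 at 59.8%, CpG4 at 59.3% and CpG10 at 55.8%. CpG3 and CpG4 lie 7 bases apart and differed by over 20 points at 5 of 7 ages, so the level changed sharply from one CpG to the next.

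**Figure D1:**
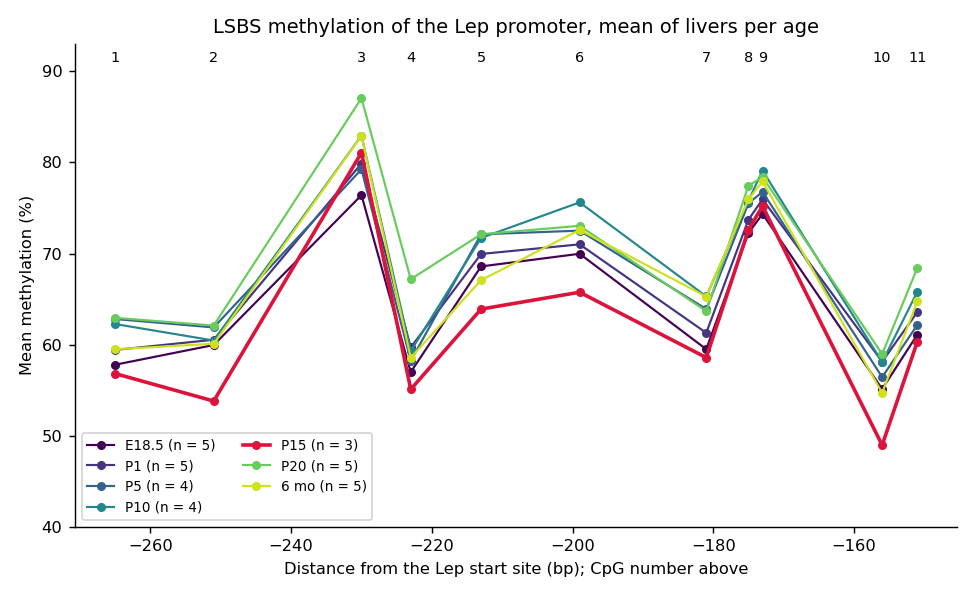
Mean LSBS methylation (%) of the 11 Lep promoter CpGs against their distance from the start site in bp, with 1 line per age and the number of livers in the legend. The 7 lines keep the same peaks at CpG3 and at CpG8 and CpG9 and the same troughs at CpG4 and CpG10, and the P15 line is the lowest of all at 8 CpGs.

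The order of the CpGs was kept as the liver grew. CpG3 had the highest mean and CpG10 the lowest at 7 of 7 ages. Spearman's rho of the 11 CpG means between ages ran from 0.90 to 0.991 over the 21 pairs of ages, which is a description over CpGs of 1 amplified region. The SD between the 11 CpG means was 8.38 points. It was 3.47 points between livers of an age (pooled over CpGs and ages) and 2.41 points between the 7 age means of the region. The SD between CpGs was taken on means over ages, that between ages on means over CpGs, and that between livers on single values. Means over ages spanned 25.6 points between CpGs. The age means spanned 7.20 points for the region and 4.76 to 12.1 points at single CpGs. Levels thus differed more between CpGs than between ages or livers.

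The neighbouring bases also differed between high and low CpGs. The 3 CpGs preceded by T (CpG4, CpG7 and CpG10) had a mean of 59.2% and a range of 55.8% to 62.5%. The 4 preceded by G (CpG6, CpG8, CpG9 and CpG11) had a mean of 71.7% (63.7% to 76.8%), and the 4 preceded by C (CpG1, CpG2, CpG3 and CpG5) a mean of 67.7% (59.8% to 81.4%). The 3 preceded by T all stand in the letters CTCGAGG, on the plus strand for all of them and on both strands for CpG4 and CpG10. On either strand CTCGAGG is in 2.20% of RefSeq promoters. These 3 are shown beside CpG3, the highest CpG, which with CpG5 lies in CCGG, with the CpG itself in capitals:

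CpG3: ctgctggcCGgacctcga
CpG4: ccggacctCGaggattac
CpG7: cttgcactCGagggcgcg
CpG10: ttctccctCGaggcgcct

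With 11 CpGs of 1 region these levels are given without a test, and bias of PCR towards methylated or unmethylated copies was not tested.

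Livers of an age differed most at P10, P15 and 6 mo. The median SD over the 11 CpGs was 1.86 points at E18.5, 2.01 at P1, 2.43 at P5, 4.34 at P10, 3.48 at P15, 2.74 at P20 and 4.22 at 6 mo. CpG3 was among the steadiest, with SDs of 1.09 to 3.48 points, and CpG7 reached 7.84 points at 6 mo, where its values were 53.9, 60.7, 68.0, 71.4 and 72.4%. The sex behind the lowest and the highest values differed between ages. The lowest value came from a female at 11 of 11 CpGs at P5, P10 and P15, and from a male at 10 of 11 at E18.5 and at 11 of 11 at 6 mo. The highest came from a female at 11 of 11 at P10 and 9 of 11 at E18.5, and from a male at 7 of 11 at P5, P15 and P20. No sex was thus high or low throughout. At P5, P10 and P15 only 1 liver was male, and at E18.5 and 6 mo 3 of 5 were. The 11 CpGs come from the same few livers, so these counts are not 11 separate observations. Values of a liver cannot be joined across CpGs, because the table does not name the animal behind a value, and whether 1 liver gave all of them was not tested.

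**Figure D2:**
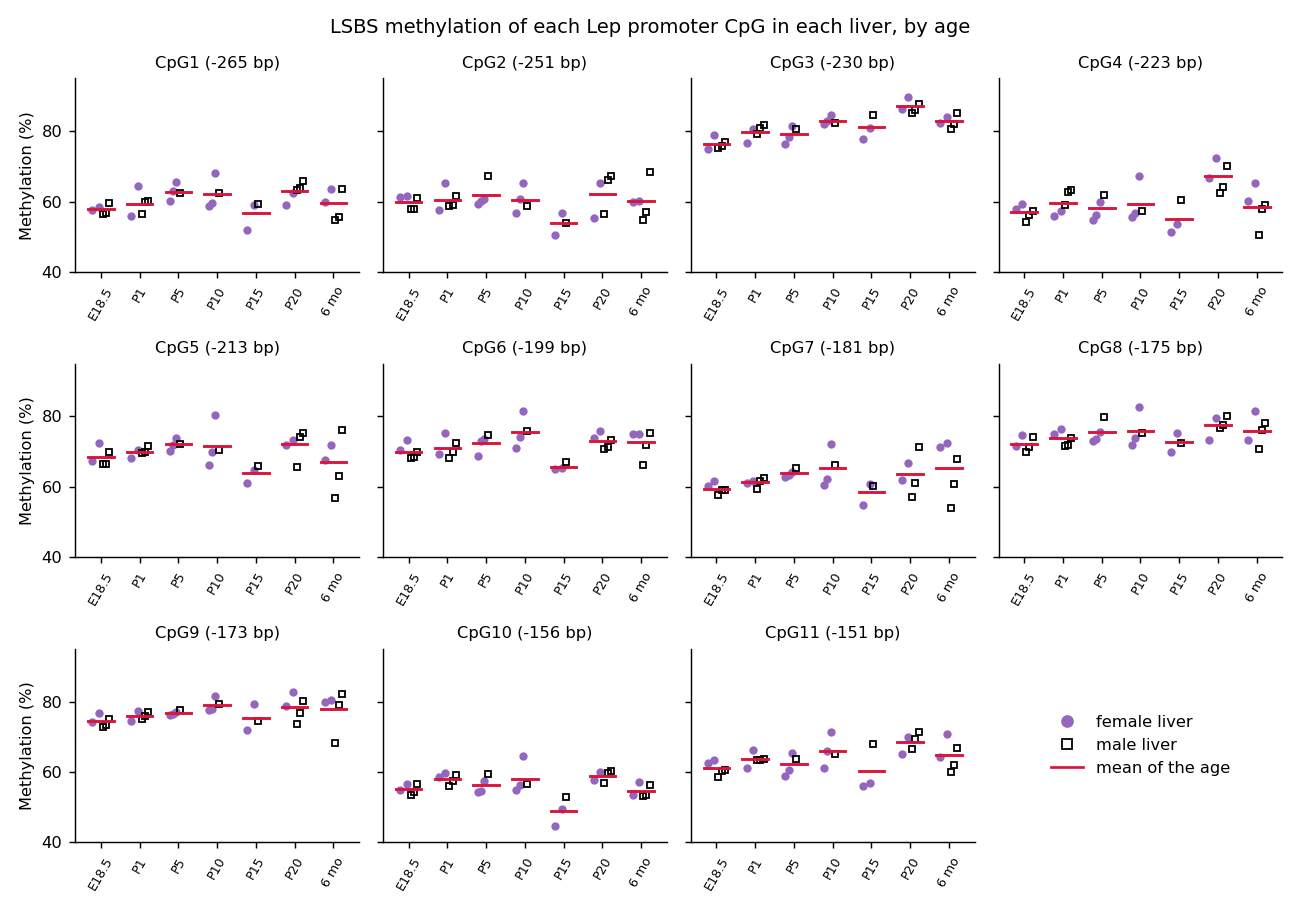
LSBS methylation (%) of each Lep promoter CpG in each liver, by age, with 1 panel per CpG (distance from the start site in bp). Filled circles are females, open squares males and red bars the mean of the age. E18.5 livers lie close together, with a median SD of 1.86 points, and 6 mo livers spread more widely, with a median SD of 4.22 points.

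The first comparison asked whether the promoter differed between the fetal and the adult liver. One CpG rose and the other 10 did not pass the test. CpG3 was 74.9, 75.3, 75.9, 77.0 and 78.9% in the E18.5 livers and 80.8, 82.1, 82.4, 84.2 and 85.1% at 6 mo. All 5 adult values were above all 5 fetal values. The difference was 6.51 ± 1.24 points (SE, limma, adjusted p = 6.24e-05, exact permutation p = 0.00794, the smallest 5 against 5 livers can give). A CpG was called here and below at an adjusted p of at most 0.1 with a difference over 5 points. By that rule 1 of the 11 Lep CpGs rose and none fell, where 24 of all 166 LSBS CpGs (14.5%) rose and 29 fell. CpG7 came next with 5.78 ± 2.79 points (95% interval 0.0327 to 11.5, adjusted p = 0.116). The median difference of the 11 was 2.62 points, against 0.0845 points over all 166. The 166 include the loci of Igf2 (11 CpGs), Srebf2 (15), Srebf1 (22), Nr1h2 (17), Nfkb1 (19), Pck2 (10) and Nfkb2 (2). These loci hold the larger part of the 166 and had means of 0.505 to 2.57%. None of their CpGs was called here or between consecutive ages, and levels near 0% leave little room to fall. They are part of every share and median over all LSBS CpGs given here. The intervals of CpG2 (-4.95 to 5.23 points), CpG5 (-7.01 to 4.01), CpG10 (-3.62 to 2.78), CpG1 (-2.46 to 5.86) and CpG4 (-3.65 to 6.82) included 0 and allowed changes of several points. Leaving out 1 value at a time gave 1 to 3 called CpGs, CpG3 in every case.

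Over the first steps of the time course the promoter moved little. From E18.5 to P1 all 11 means were higher, by 0.58 to 3.48 points, and none was called (6.02% of all CpGs were). CpG3 had the largest of these differences, 3.48 ± 1.24 points with an adjusted p of 0.0682, under the 5 points. From P1 to P5, 7 of the 11 were higher and none was called (8.43% of all CpGs were). In the limma fit none had an unadjusted p of at most 0.05. CpG7 was 59.3 to 62.5% at P1 and 62.7 to 65.2% at P5, without overlap (exact permutation p = 0.0159, adjusted p = 0.146). From P5 to P10, 8 were higher and none was called (20.5% of all were). CpG3 again had the lowest adjusted p, 0.0463, at 3.71 ± 1.39 points. Its P10 livers, 82.0, 82.3, 82.9 and 84.5%, all lay above its P5 livers, 76.4, 78.5, 80.6 and 81.5%. CpG9 did not overlap either, at 76.2 to 77.6% at P5 and 77.7 to 81.5% at P10 (exact permutation p = 0.0286, limma adjusted p = 0.529). With exact permutation tests none of the 11 was called in these 3 steps, and without the minimum difference 1 CpG (CpG3) was called from E18.5 to P1 and from P5 to P10.

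The largest movement lay around P15, where the promoter was at its lowest. From P10 to P15 all 11 means were lower, with a median difference of -5.49 points against -0.0220 points over all CpGs, and from P15 to P20 all 11 were higher, with a median of 7.29 points against -0.0928. By the rule 3 CpGs fell from P10 to P15, where 18.7% of all CpGs fell, and 8 rose from P15 to P20, where 7.23% of all rose. That last share includes Lep itself, which gave 8 of the 12 rises. The shares and medians over all CpGs also include the loci with means of 2.57% or less, which hold the larger part of the 166. These shares and medians thus do not show how Lep compares with other partly methylated loci, whose calls are given below.

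CpG10, the least methylated CpG, went lowest. Its values were 54.9, 56.4, 56.5 and 64.5% at P10, 44.5, 49.5 and 52.9% at P15 and 56.9, 57.7, 59.8, 60.1 and 60.4% at P20. The P15 livers lay below every liver of both neighbouring ages. CpG10 fell by 9.11 ± 1.88 points (adjusted p = 0.000453) and then rose by 10.0 ± 1.79 points (adjusted p = 0.000283).

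CpG6, close to the middle of the region, had the tightest P15 values. They were 65.0, 65.2 and 67.0%, against 70.9, 74.3, 75.9 and 81.4% at P10 and 70.7, 71.4, 73.2, 74.0 and 75.9% at P20. Here too the P15 livers did not overlap with either neighbour. CpG6 fell by 9.86 ± 2.17 points (adjusted p = 0.00086) and rose by 7.29 ± 2.07 points (adjusted p = 0.00958).

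CpG5, in a CCGG, was 66.2, 69.8, 70.5 and 80.3% at P10, 60.9, 64.9 and 65.9% at P15 and 65.7, 72.0, 73.4, 74.3 and 75.2% at P20. It fell by 7.81 ± 3.23 points (adjusted p = 0.0977), a call that was lost in 5 of 7 fits that left out 1 value. Its rise to P20 was 8.22 ± 3.09 points (adjusted p = 0.0485).

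CpG4 had the largest rise of the region. It was 51.3, 53.6 and 60.4% at P15 and 62.4, 64.2, 66.7, 70.1 and 72.5% at P20, with no overlap. The difference was 12.1 ± 2.94 points (adjusted p = 0.00338). The difference before it, -4.20 ± 3.07 points from P10 to P15, did not pass (adjusted p = 0.411).

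CpG3 had no called fall to P15 (-1.87 points, 95% interval -4.96 to 1.22, adjusted p = 0.442). From 77.7, 80.8 and 84.7% at P15 it reached 85.2, 86.0, 86.3, 87.8 and 89.8% at P20, a rise of 5.98 ± 1.43 points (adjusted p = 0.00322). CpG11 rose by 8.10 ± 2.52 points, CpG2 by 8.29 ± 2.85 and CpG1 by 6.12 ± 2.33 (adjusted p = 0.0176, 0.0300 and 0.0496). Without the first P15 female value CpG1 was 3.65 points higher and not called (adjusted p = 0.393). CpG7, CpG8 and CpG9 were 5.10, 4.84 and 3.18 points higher and did not pass.

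Only 3 livers stand for P15, and 1 of them is known by its sex. The P15 male averaged 65.4% over the 11 CpGs, against 61.7% for the 2 females, and lay above both females at 7 CpGs. Without it the differences were larger on average, and 8 CpGs were called for the rise and 3 for the fall. These 3 did not include CpG5 (adjusted p = 0.108). Without the first P15 female value at each CpG the rise was called at 3 CpGs (CpG4, CpG6 and CpG10). The exact permutation test called none for the fall, where 3 against 4 livers cannot give a p below 0.0286, and 4 (CpG3, CpG4, CpG6 and CpG10) for the rise.

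**Figure D3:**
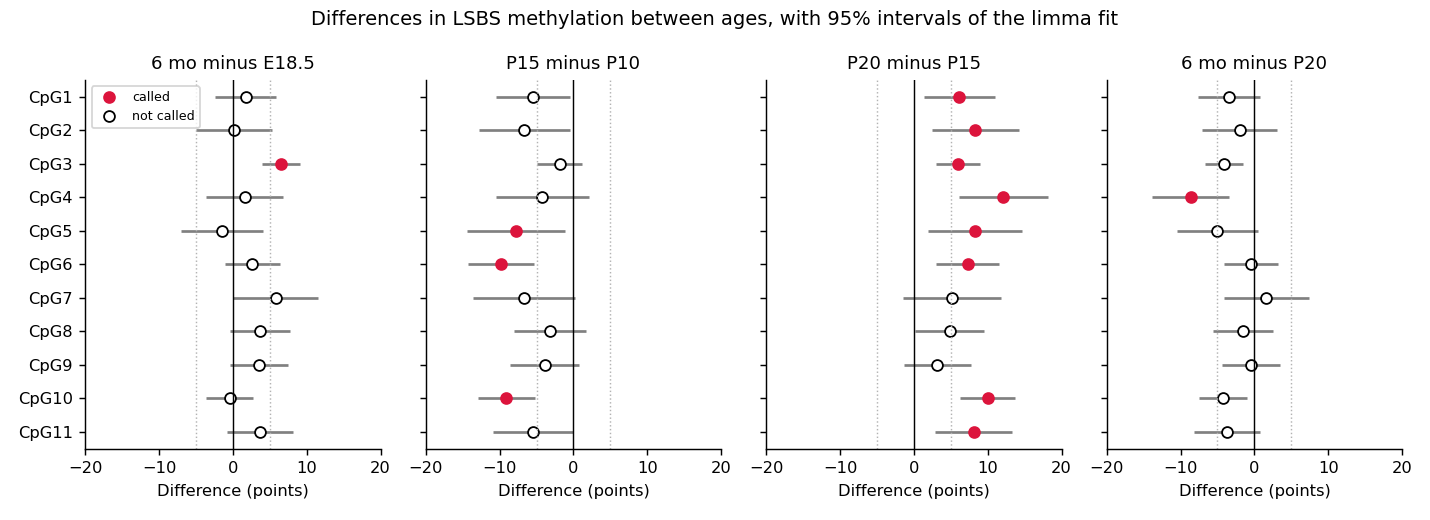
Differences in LSBS methylation (points) between ages at the 11 Lep promoter CpGs, with the 95% interval of the limma fit. Filled red points were called (adjusted p at most 0.1 and over 5 points, dotted lines), open points were not. All 11 points lie below 0 from P10 to P15 and above 0 from P15 to P20, and CpG3 is the called point between E18.5 and 6 mo.

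After P20 the means came down again at 10 of 11 CpGs, with a median of -3.44 points. CpG4 was called, as 3.01% of all CpGs were that fell at this step. Its values at 6 mo were 50.5, 57.8, 59.0, 60.2 and 65.2%, which overlap with those at P20, and it fell by 8.62 ± 2.54 points (adjusted p = 0.0513). The call was lost in 4 of 10 fits that left out 1 value and with the exact permutation test (adjusted p = 0.31). CpG3 fell by 4.14 ± 1.24 points with the same adjusted p, under the 5 points.

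Because P20 was the highest age, E18.5 was also set against it, a comparison chosen after the values were seen. CpG3 rose by 10.6 ± 1.24 points (adjusted p = 2.46e-08), CpG4 by 10.2 ± 2.54 (adjusted p = 0.00154) and CpG11 by 7.33 ± 2.18 (adjusted p = 0.00794), with no overlap between the livers of both ages at any of them. CpG8 and CpG1 rose by 5.21 and 5.14 points (adjusted p = 0.0401 and 0.0483). These were 5 of 11, where 16.3% of all CpGs rose.

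Over the 7 ages together, 5 Lep CpGs differed in the moderated F test (adjusted p at most 0.1), where 42.8% of all CpGs did. They were CpG3 (1.49e-06), CpG10 (0.000749), CpG6 (0.0141), CpG4 (0.0151) and CpG11 (0.0631). Without P15 the same test called CpG3, CpG4, CpG11 and CpG10, but not CpG6 (adjusted p = 0.265), and 40.4% of all CpGs.

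Ordered by the mean of the 11 CpGs, P20 was the highest at 70.1%, followed by P10 at 68.8%, P5 at 67.4%, 6 mo at 67.2%, P1 at 66.6%, E18.5 at 64.7% and P15 at 62.9%. Few CpGs were called between neighbours in this order. None was called between P10 and P5, between P5 and 6 mo (28.3% of all CpGs were), between 6 mo and P1 (27.7%) or between P1 and E18.5. In each of these 4 pairs 1 or 2 CpGs passed the adjusted p with a difference under 5 points. Between P20 and P10, 1 of 11 was called (20.5% of all), and between E18.5 and P15, 2 of 11 (30.1%).

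Females and males did not differ by the rule at any Lep CpG. With age in the model, female minus male ran from -0.43 points (CpG3, 95% interval -1.98 to 1.13) to 1.99 points (CpG7, -1.43 to 5.41). The lowest adjusted p of the 11 was 0.703. By the rule 0% of the 166 CpGs differed by sex (limma), no Lep CpG had an unadjusted p of at most 0.05, and 6 of the 166 did.

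Among the 17 LSBS loci the Lep promoter had a mean over the ages of 66.8%, rank 4 from the top. Above it were a region within Irs1, an insulin signalling gene, at 91.5%, and the promoters of Nr1i2, the gene of the receptor PXR that senses foreign compounds, at 88.1%, and of Sftpa1, a lung surfactant gene, at 67.8%. Below it were Nr1i3, the gene of the receptor CAR, at 54.9%, and the imprinted Peg3 region at 53.9%. Lep and Sftpa1 were close on average but not at each age. Sftpa1 was at 55.0% at E18.5 and 80.7% at 6 mo, while Lep was at 64.7% and 67.2%. The age means of Lep spanned 7.20 points and those of Nr1i3 spanned 40.3 points. The 3 loci whose 7 age means ran most like those of Lep were Irs1 (Pearson's r = 0.430), Peg3 (r = 0.399) and Sftpa1 (r = 0.345), and none was close. These r are over 7 ages in livers that were largely shared and carry no test.

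The course around P15 set Lep beside different loci at each step. From P10 to P15 no CpG was called as lower in Irs1 (10 CpGs), Nr1i2 (5), Peg3 (11) or Sftpa1 (4). Called falls lay in Lep (3 of 11 CpGs) and in 5 other loci. These were Acsl1 (5 of 6), Mttp (4 of 4), Nr1i3 (4 of 4), Pck1 (5 of 5) and Rxrg (10 of 10). From P15 to P20 called CpGs in those 5 loci fell further, with mean differences over the CpGs of a locus of -8.58 to -6.47 points, and the called rises were in Lep (8 of 11 CpGs) and Sftpa1 (4 of 4). The median SD between livers was 2.78 points at Lep, the largest of the 17 loci. Pck1 (2.67 points) and Acsl1 (2.65 points) came next. Loci near 0% or 100% have less room to vary, and the part of this in the order was not tested.

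**Figure D4:**
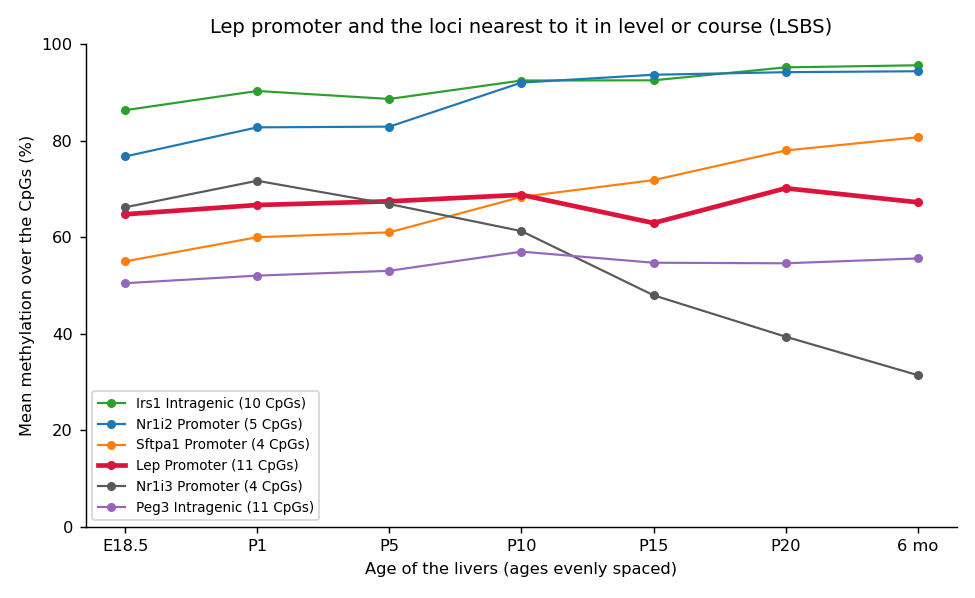
Mean LSBS methylation (%) over the CpGs of each locus at the 7 ages, for the Lep promoter (thick red line) and the 5 loci nearest to it in level or most like it in course. Ages are evenly spaced. Lep stays between 62.9% and 70.1%, dips at P15 and is crossed by Sftpa1, which rises, and by Nr1i3, which falls.

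RRBS gave the part of the promoter next to the start site, at fewer ages. CpG12 was partly methylated, near the level of the lower LSBS CpGs, and CpG13, in the C/EBP motif, was more methylated. RRBS and LSBS are different assays and were not tested against each other. Whether they shared livers was not determined. CpG12 was 47.1, 51.2, 61.0, 63.2 and 65.4% in the E18.5 libraries. It ranged from 45.8 to 73.1% (median 63.2%) in 9 P1 libraries and from 45.5 to 66.7% (median 54.7%) in the 6 of 10 9 wk libraries that had a value. CpG13, only 10 bases away, was 73.8, 78.9, 82.9, 86.5 and 94.1% at E18.5, 81.3 to 93.3% (median 87.5%) at P1 and 81.8 to 94.4% (median 90.5%) at 9 wk. The ages overlapped at both CpGs, and the 2 CpGs stood apart by over 20 points at each age.

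No difference between ages passed at the pair. From E18.5 to P1, CpG12 was 4.99 ± 4.53 points higher (95% interval -4.47 to 14.4) and CpG13 3.63 ± 3.55 points higher (-3.80 to 11.1), with adjusted p of 0.597 and 0.629, and no Lep CpG was called (0.552% of all RRBS CpGs were). The 4 missing 9 wk libraries put the pair under the required 80% in the other comparisons. With all 3 ages in 1 fit, CpG12 was at -1.02 ± 4.95 points and CpG13 at 6.55 ± 3.71 points from E18.5 to 9 wk (adjusted p = 0.868 and 0.134, with 62.9% of all CpGs called). From P1 to 9 wk they were at -6.01 ± 4.31 and 2.93 ± 3.22 points (adjusted p = 0.276 and 0.486, with 45.2% of all called). Exact permutation tests on the values at hand gave p = 0.844 and 0.108 for E18.5 against 9 wk.

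At the other end of the gene, CpG15 in the last exon rose from a partly to an almost fully methylated state. It was 62.0, 73.0, 75.5, 80.5 and 87.3% at E18.5, 69.0 to 95.1% (median 88.4%) at P1 and 90.9 to 100% (median 98.8%) at 9 wk, where 5 of 10 libraries were at 100%. All 10 of the 9 wk libraries lay above all E18.5 libraries. The difference from E18.5 to 9 wk was 21.0 ± 3.47 points (adjusted p = 0.000108, exact permutation p = 0.000333, the smallest 5 against 10 can give). From P1 to 9 wk it was 11.6 ± 3.44 points (adjusted p = 0.0127), and from E18.5 to P1 9.44 ± 4.94 points, which did not pass (adjusted p = 0.343).

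CpG14, in the same exon, was 78.1, 80.8, 81.5, 83.8 and 83.8% at E18.5, 70.8 to 91.8% (median 84.8%) at P1 and 72.7 to 100% (median 90.2%) at 9 wk. It was 7.48 ± 3.58 points higher at 9 wk than at E18.5 (adjusted p = 0.0817, exact permutation p = 0.0583). The 7 libraries at 9 wk that were deposited with the other ages lay at 88.0 to 100%, and the 3 deposited later lay at 72.7, 81.8 and 88.2%. The 3 later libraries had values at fewer CpGs, 160232 to 185853 against 222830 to 271267 in the first 7. Whether this bears on their levels was not tested. With the first 7 alone the difference was 11.0 points (exact permutation p = 0.00126). The call was lost in 8 of 15 fits that left out 1 library (E18.5 replicates 2, 3 and 5 and 9 wk replicates 1, 2, 4, 5 and 6), where CpG14 was 6.27 to 7.46 points higher.

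Both last-exon CpGs were called as higher from E18.5 to 9 wk, where 58.5% of all RRBS CpGs were, and 1 of the 2 from P1 to 9 wk, where 36.1% were. The level of whole libraries moved the same way. The mean over all CpGs was 63.5 to 64.9% in the E18.5 libraries, 66.0 to 70.0% at P1 and 72.4 to 74.2% at 9 wk, and the median difference over all CpGs from E18.5 to 9 wk was 9.68 points. With libraries scaled to the same mean over highly methylated CpGs, CpG14 was at -2.90 points and not called, while CpG15 was 10.7 points higher and called from E18.5 to 9 wk (adjusted p = 0.0352) and not called from P1 to 9 wk (5.58 points, adjusted p = 0.274).

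**Figure D5:**
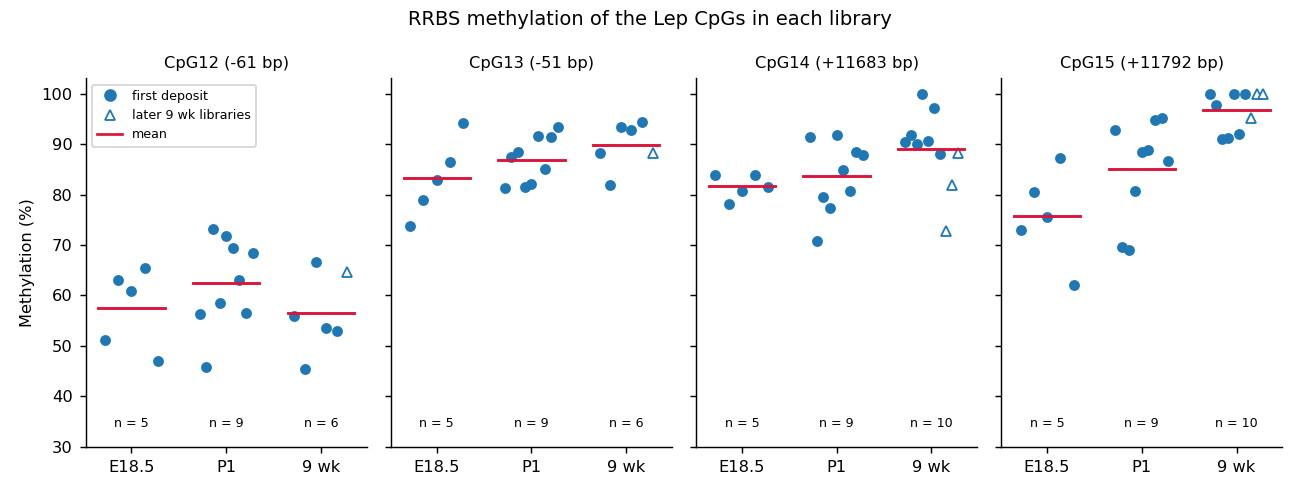
RRBS methylation (%) of the 4 Lep CpGs in each library at E18.5, P1 and 9 wk, with the distance from the start site in bp and the number of libraries with a value. Filled circles are libraries of the first deposit, open triangles the later 9 wk libraries and red bars means. All 9 wk values of CpG15 lie above its E18.5 values, and the other 3 CpGs overlap between ages.

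Genes that act with leptin were taken from a list chosen with earlier results of these data known. Their CpGs were counted from 5 kb upstream of the start site to the gene end. Over 19 genes other than Lep, 16 had an RRBS CpG. Of 181 tested CpGs 82 were called higher and 51 lower at 9 wk than at E18.5, together 73.5%. Of all RRBS CpGs 64.9% were called in either direction, 58.5% as higher and 6.46% as lower. For the leptin receptor gene Lepr, 2 of 2 CpGs were higher. Of 98 CpGs in signalling genes, 52 were higher and 20 lower. Stat3, which carries the signal to the nucleus, had 22 of 26 CpGs higher and none lower, and the related Stat5a had 12 of 14 higher and Stat5b 14 higher and 7 lower of 36. The kinase gene Jak2 had 1 higher and 1 lower of 2, and its adaptor Sh2b1 had 1 of 1 lower. Of the insulin signalling genes, Irs2 had 10 of 12 lower and Pik3r1 had 3 higher and 1 lower of 7. Irs1 had no RRBS CpG in its window, as had Pparg and Retn. Of the inhibitors of the receptor, Socs3 had 2 of 2 higher and the phosphatase gene Ptpn1 had 15 higher and 2 lower of 22.

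In the genes of factors known to act on the Lep promoter, 29 of 39 CpGs were lower at 9 wk and 3 higher, where 6.46% of all RRBS CpGs were lower. Most of the 29 lay in 1 gene. Rxra had 20 of 23 CpGs lower and 2 higher, Srebf1 had 6 of 9 lower and 1 higher, Cebpa had 3 of 6 lower, and the 1 CpG of Sp1 was not called. Of other hormones of fat cells, Adipoq (adiponectin) had 2 of 3 higher and Cfd (adipsin) 6 of 15 higher. Only 8 of the 19 genes had an RRBS CpG within 1 kb of the start site. At the CpG nearest to the start, means at E18.5 and 9 wk were 8.04 and 12.0% for Jak2, 8.40 and 12.9% for Stat5b and 4.30 and 9.23% for Pik3r1, none of which had enough libraries at 9 wk to be tested. They were 10.1 and 5.60% for Irs2 and 5.98 and 11.7% for Cebpa, neither called (adjusted p = 0.240 and 0.169). They were 10.8 and 4.08% for Sh2b1 and 17.7 and 8.16% for Srebf1, both called lower (adjusted p = 0.0752 and 0.0183). Of the 8, Ptpn1 had the highest level, with 77.4 and 59.6% at a CpG at -511, and was called lower (adjusted p = 0.0284).

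The liver label could not be checked against marker genes in these data. Of 6 fat cell genes, 6 hepatocyte genes and 6 genes of blood-forming cells, Lep was the only one found with an RRBS CpG within 1 kb of its start site. Spi1, on the list of blood-forming cells, was not found under that name in the gene annotation, so its CpGs were not examined.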

How the data were processed

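Genomic DNA of mouse livers was bisulfite sequenced. Per the study's methods the authors aligned reads to mm9 with Bismark (version 0.7.6 in the submitters' processing notes) and Bowtie2, and set as missing any RRBS CpG under 10 reads and discarded any LSBS CpG under 100. The deposited LSBS table holds percent methylation per CpG, age and sex. The deposited RRBS table holds the fraction methylated per CpG and library, multiplied by 100 here. Coverage per value is not in these tables, so no counting interval is given. RRBS libraries had values at 160232 to 271325 CpGs.

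Of the LSBS table, 830 values (55 of Lep) were of 9 wk, an age with no labelled LSBS sample, and were not used. The study's text gives 9 wk as the adult age of LSBS and does not name the labelled 6 mo livers. LSBS rows carry no sample name and were grouped by age and sex. Columns of the authors' own comparisons (differences, p-values) in other tables were not used.

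Means per age were fitted with limma (version 3.58.1, R 4.3.3), all LSBS ages in 1 fit and RRBS in fits of 2 ages, with Benjamini-Hochberg adjustment over all 166 LSBS CpGs, or over all RRBS CpGs with a value in at least 80% of the libraries and at least 10% in 1 of them. A CpG was called at an adjusted p of at most 0.1 with a difference over 5 points, the study's limits. limma replaced the study's test because groups hold 3 to 10 samples. The fits were tested on simulated data. Exact permutation tests were two-sided. Alternatives were Storey q values, other limits, a sex term, a logit scale, other filters and fits, scaling of libraries and leaving out values. All Lep CpGs are named. Genes of the list are named by counts and by the CpG nearest to the start within 1 kb, and loci by their r with Lep and their place in the order of means. The CpGs and gene lists were chosen with earlier results of these data known. Sequences were read from the mm9 genome, and motif shares from RefSeq promoters.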

Additional observations from a re-analysis of the deposited data

Results flagged for a closer look

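In 78 groups of 4 to 10 values (a Lep CpG at an age), 3 held a value far from the others by Dixon's test, where chance flags about 1 in 20 groups. CpG2 at P5 had a male at 67.2%, with the females at 59.4 to 60.7%. CpG4 at P10 had a female at 67.4%, with the next liver at 57.3%. CpG9 at 6 mo had a male at 68.1%, with the next liver at 79.1%.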

How the results depend on the processing

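No paired analysis was possible because LSBS rows carry no sample name and the RRBS ages are separate animals with replicate numbers in accession order.

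From E18.5 to 6 mo, 2 Lep CpGs instead of 1 were called with Storey q values, on the logit scale, with the robust fit with trend and without CpGs under 5%, and 1 to 3 when 1 value was left out. From P10 to P15, 5 instead of 3 were called with Storey q values and 7 without CpGs under 5%. At this step 1 (CpG6) was called with only the 2 ages in the fit and 0 with the exact permutation test. Leaving out 1 value gave 2 to 5 there. From P15 to P20 the permutation test called 4 instead of 8, and leaving out 1 value gave 3 to 9. From P20 to 6 mo, 0 instead of 1 were called at an adjusted p of 0.05, with only 2 ages or with the permutation test, 2 without the minimum difference, and 0 to 1 when 1 value was left out. Without the minimum difference 1 instead of 0 was called from E18.5 to P1 and from P5 to P10. E18.5 to P20 gave 3 to 5, and the F test 4 to 8, when 1 value was left out. From E18.5 to P1, P1 to P5 and P5 to P10 it gave 0 in every case, as for sex.

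In RRBS from E18.5 to 9 wk, 1 instead of 2 was called on the logit scale, with scaled libraries and in 8 of 15 fits without 1 library (1 to 2). From P1 to 9 wk, 2 instead of 1 were called with Storey q values, with the first-deposited 9 wk libraries and without 9 wk replicate 8 (1 to 2), and 0 with scaled libraries. From E18.5 to P1 it stayed 0 without any 1 library. Scaling also turned CpG14 to -2.90 points (E18.5 to 9 wk), -2.69 (E18.5 to P1) and -0.210 (P1 to 9 wk) and CpG13 to -1.13 (E18.5 to P1). Differences from E18.5 to 6 mo that changed sign when 1 value was left out were those of CpG2 (-1.92 to 1.45 points), CpG4 (-0.0901 to 3.59) and CpG5 (-3.79 to 1.05). With 1 kb windows 4 CpGs of the other genes were called instead of the 82 higher and 51 lower, as 8 were tested. The cause of the other changes was not tested.

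Depth is unknown for each value, P15 rests on 3 livers, and age goes with the mixture of cells and, at 9 wk, with deposit. The 9 wk RRBS mice were male per the study's methods, and the sex behind the E18.5 and P1 libraries was not given. Age and sex thus cannot be told apart in RRBS.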
